A study of Mus musculus with 9 samples.

Results

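The data described here are the response of DKO-labelled OT-II thymocytes to a self-antigen. They come from 5 of the 9 libraries of the series, 2 from RIPmOVA hosts and 3 from wild-type (WT) hosts, and were chosen by the host and donor labels. The comparison covers the 11569 of 24594 genes that reached 1 RPKM, a level in reads per kilobase of exon scaled to library size, in 2 or more of the 9 libraries. Bone marrow of OT-II Nr4a1-/- Nr4a3-/- mice on C57BL/6 (DKO), of OT-II Nr4a1+/+ Nr4a3+/+ mice (B6.Cg-Tg(TcraTcrb)425Cbn/J crossed with BoyJ) and of non-transgenic wild-type mice was mixed at 1 to 1 to 3 and given to irradiated hosts, which were sorted for CD4+ CD8- CD69+ Valpha2+ VBeta5+ thymocytes at 4.7 weeks. Both DKO-labelled groups therefore carry the OT-II T cell receptor, grew beside receptor-sufficient OT-II and polyclonal cells, and lack both targeted genes by their label. By their labels the WT hosts were BoyJ mice and the RIPmOVA hosts were F1 mice that carried Tg(Ins2-TFRC/OVA)296Wehi/WehiJ from a C57BL/6 parent beside a BoyJ genome, whereas the methods of the study describe WT and RIPmOVA mice alike as offspring of such a cross. If the labels hold, strain background and transgene cannot be told apart. The rat insulin promoter of that transgene drives membrane-bound ovalbumin in pancreatic islets, kidney and testis as well as in radioresistant medullary thymic epithelial cells, which the host keeps after irradiation. Each DKO-labelled library came from a different chimera.

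OT-II is a T cell receptor that recognises an ovalbumin peptide on MHC class II, so OT-II thymocytes meet their antigen in the RIPmOVA thymus and not in the WT thymus. Strong receptor signals in CD69+ single-positive thymocytes switch on immediate early genes, NF-kB and AP-1 targets and feedback inhibitors. They can end in death through the BH3-only protein BIM, in diversion to the regulatory T cell lineage or in an unresponsive state called anergy. Nr4a1 and Nr4a3 encode orphan nuclear receptors that belong to the immediate early response themselves.

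Recovered depth was 17460000 to 25050000 reads in the 5 DKO-labelled libraries, so that 3 reads on a transcript of 1 kb stood for 0.120 to 0.172 RPKM. Pairs of libraries from the same host had a Pearson r of 0.975 to 0.986 across genes, which are not independent replicates. Reads on olfactory, vomeronasal and trace amine receptor genes, which belong to sensory neurons, were 504, 1042 and 413 RPM (reads scaled to library size alone) in WT and 1041 and 1481 RPM in RIPmOVA hosts. Genes at 1 RPKM or above numbered 9702 to 10825 in WT and 10995 and 11637 in RIPmOVA hosts. On the first principal component of the 5 libraries, which held 63.4% of the variance, the RIPmOVA libraries lay at 30.2 and 31.1, WT replicate 2 at 1.97 and WT replicates 1 and 3 at -28.9 and -34.4. Counts below are therefore also given from a fit with these sensory receptor reads as a covariate, while their part in the results was not tested. Among the 5 tested markers of T cells, Cd3e, Cd4 and Lck were at 189 RPKM or more in each DKO-labelled library. Cd8a was at 1.76 to 3.39 RPKM, while Cd8b1 was at 65.9 to 96.4 RPKM and Dntt, the template-independent polymerase of immature thymocytes, at 17.0 to 30.1 RPKM in these CD4+ CD8- sorted cells.

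Nr4a1 (Entrez 15370, GRCm38 chromosome 15, 101253902 to 101274795) was at 60.1, 80.2 and 87.7 RPKM in WT hosts and at 282 and 235 RPKM in RIPmOVA hosts. Both RIPmOVA libraries lay above all WT libraries, and the log2 fold change was 1.77 (SE 0.19, adjusted p = 0.0017). The control OT-II libraries held Nr4a1 at 60.7 and 86.1 RPKM in WT hosts and at 260 and 229 RPKM in RIPmOVA hosts, so the label DKO did not go with a lower gene-level value. Nr4a3 (Entrez 18124, chromosome 4, 48045078 to 48086447) was at 0.294, 0.665 and 0.188 RPKM in WT and at 16.5 and 14.1 RPKM in RIPmOVA hosts, against 5.66 and 3.72 RPKM in control cells of RIPmOVA hosts. It rose by 4.20 (SE 0.26, adjusted p = 0.0001). Reads were summed over all exons of a gene, so these values show neither which exons were transcribed nor whether a protein was made, and they do not check the genotype. The libraries are called DKO-labelled for this reason. Nr4a2, the family member that was not targeted, was at 0.355, 0.319 and 0.220 RPKM in WT and at 17.4 and 7.73 RPKM in RIPmOVA hosts, and rose by 3.93 (SE 0.33, adjusted p = 0.0005). All 3 receptors were also called with the covariate for sensory receptor reads.

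The first question was how many genes differed between hosts in DKO-labelled cells. A gene was called when its limma adjusted p was at most 0.05 and its log2 fold change, taken on log2(RPKM + 0.5), was at least 1 in size, and a fold on this scale understates the change of low genes. Of the 11569 genes, 194 were called (1.68%), 176 higher (1.52%) and 18 lower (0.156%) in RIPmOVA hosts. The genes called higher had a median change of 1.74, and 62 of them exceeded 4-fold, while those called lower had a median of -1.28. The median over all genes tested was 0.03. In all 194 called genes the libraries of the hosts did not overlap, and neither did they in 40.0% of all genes tested. With the covariate, 87 genes were called, of which 80 were among the 194, and all 194 kept their direction. Without WT replicate 2, the WT library with most sensory receptor reads, 259 were called, of which 171 were among the 194. Without WT replicate 3, 118 were called, and without RIPmOVA replicate 1, 98.

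Genes called higher came from low levels. Their median level in WT hosts was 1.59 RPKM against 6.50 RPKM over all genes tested, and 72 of the 176 were under 1 RPKM there. The genes called lower had a median of 10.2 RPKM in WT hosts, and 0 of the 18 were under 1 RPKM. The call rule itself limits this contrast. With 0.5 added to each RPKM value, a gene that is low in WT hosts has little room to fall far enough for a call. The change is RIPmOVA minus WT, so low WT values also favour a call of higher. The contrast is therefore not read as a trait of the response. Low genes as a whole lay higher in RIPmOVA hosts. The filter could favour this, since the 2 RIPmOVA libraries alone can carry a low gene over it. Its part in the values below was not tested. Among the 1094 genes with a mean under 1 RPKM over the 5 libraries, the median change was 0.62, and it was 0.26 for the 1584 genes from 1 to 2 RPKM, 0.05 for the 2247 genes from 2 to 5 RPKM and -0.06 for the 2347 genes at 20 RPKM or more. With the covariate, these medians were 0.04, 0.00, 0.00 and -0.01. Genes called higher went from 16 to 2 under 1 RPKM and from 29 to 3 between 1 and 2 RPKM with the covariate, but only from 27 to 23 at 20 RPKM or more.

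**Figure D1:**
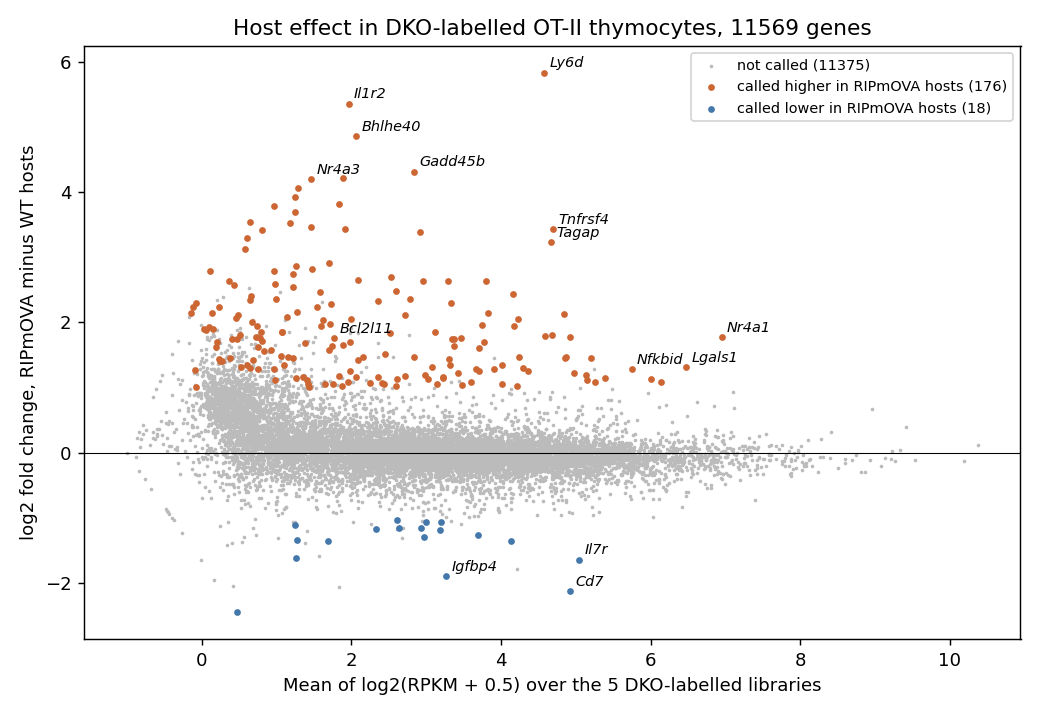
Each point is 1 of the 11569 genes tested. The x axis is the mean of log2(RPKM + 0.5) over the 5 DKO-labelled libraries and the y axis the log2 fold change of RIPmOVA over WT hosts. The 176 genes called higher (orange) outnumber the 18 called lower (blue). The cloud of genes bends upward at low levels, where the median is 0.62 under 1 RPKM. There the filter can favour genes that are high in RIPmOVA hosts.

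Ly6d (Entrez 17068, chromosome 15, 74762056 to 74763567), which encodes a GPI-anchored Ly6 surface protein, had the largest change of the called genes. It was at 6.61, 3.73 and 3.00 RPKM in WT hosts and at 365 and 197 RPKM in RIPmOVA hosts, which is a rise of 5.83 on the log2 scale (SE 0.36, adjusted p = 0.0001). Il1r2 (Entrez 16178, chromosome 1, 40084692 to 40125230), the decoy receptor for interleukin 1, went from 0.385, 0.402 and 0.358 RPKM to 70.4 and 18.1 RPKM and rose by 5.36 (SE 0.44, adjusted p = 0.0005). The RIPmOVA libraries of both genes stood far above the WT libraries but differed from each other, more so in Il1r2 than in Ly6d. Bhlhe40 (Entrez 20893, chromosome 6, 108660629 to 108666925), a basic helix-loop-helix repressor, was at 0.901, 0.630 and 0.317 RPKM and then at 48.3 and 20.1 RPKM, a change of 4.86 (SE 0.38, adjusted p = 0.00037). Gadd45b (Entrez 17873, chromosome 10, 80930091 to 80932204), a stress-induced regulator of MAP kinase signalling, was at 1.43, 1.71 and 1.88 RPKM and then at 51.3 and 35.4 RPKM, a change of 4.31 (SE 0.17, adjusted p = 1.2e-05). The SD of its WT libraries was 0.226 RPKM (n = 3).

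Abundant genes were among the leading ones too. Tnfrsf4 (Entrez 22163, chromosome 4, 156013595 to 156016613), the costimulatory receptor OX40, was at 8.50, 10.2 and 9.98 RPKM in WT and at 142 and 82.1 RPKM in RIPmOVA hosts, a change of 3.43 (SE 0.21, adjusted p = 0.0001). Tagap (Entrez 72536, chromosome 17, 7926000 to 7934897), a GTPase-activating protein of activated T cells, was at 10.1, 9.87 and 9.66 RPKM and then at 116 and 81.2 RPKM, a change of 3.23 (SE 0.14, adjusted p = 1.2e-05). In neither gene did any library come near those of the other host. Rgs16, which shortens G protein signals, rose by 4.07, Nrn1, a GPI-anchored neuritin, by 3.81, Hopx, a homeodomain cofactor, by 3.69, and Tbx21, which encodes the transcription factor T-bet, by 3.29. Lad1, a basement membrane anchor protein in epithelia, rose by 3.54 and Endod1, which encodes an endonuclease domain protein, by 3.52. H2-Q6, a class Ib MHC gene with near-identical neighbours, rose by 3.39, a value that is uncertain because reads may be shared with its copies. Each of the 20 genes with the highest change among those with 50 or more reads, Ly6d to Tagap, was also called with the covariate. Exons of Bhlhe40, Rgs16, Nrn1, Spry1, Hopx, Ikzf2 and Tagap overlap a gene on the other strand, and without strand information the reads of such pairs cannot be told apart.

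**Figure D2:**
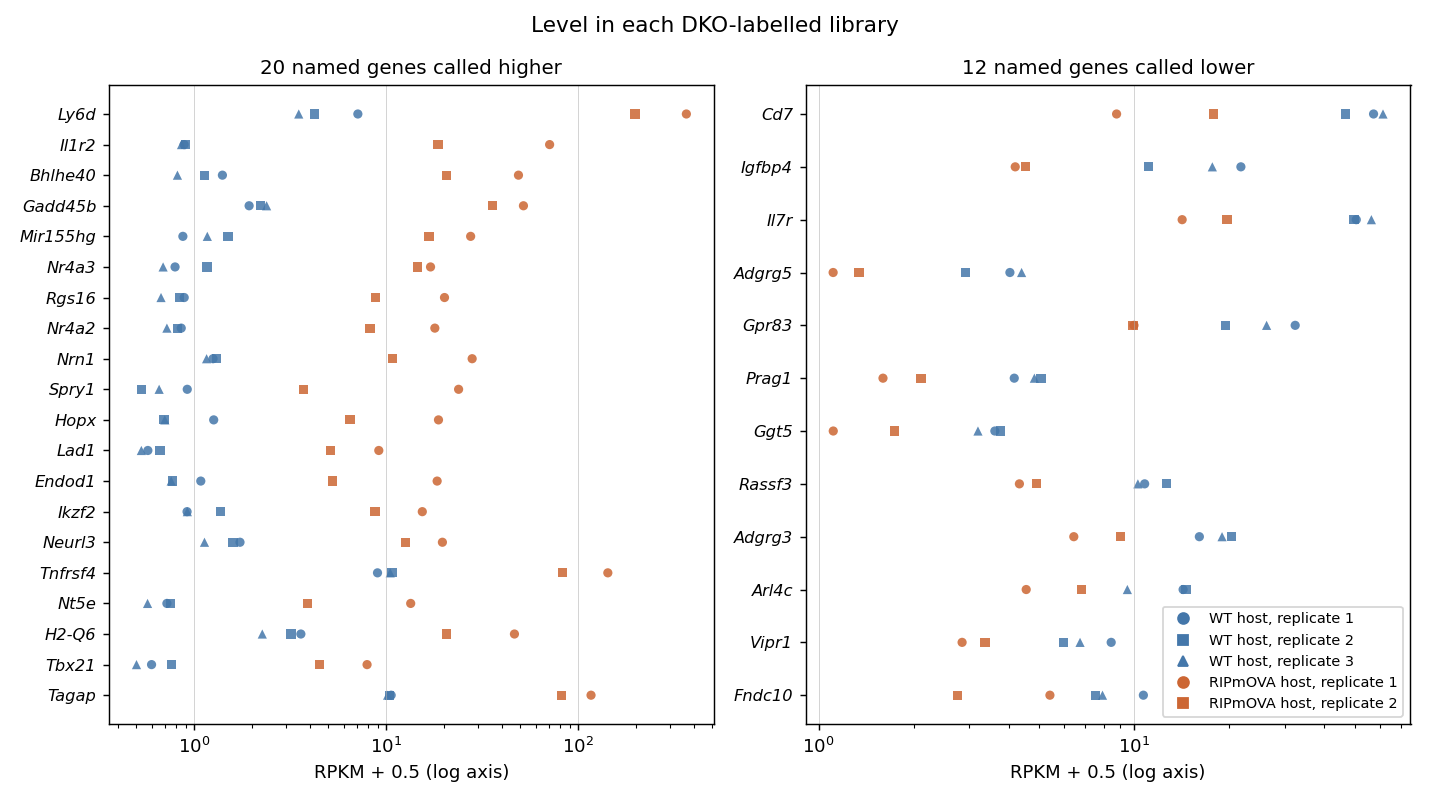
Level of the 20 named genes called higher (left) and the 12 called lower (right) in each DKO-labelled library, as RPKM + 0.5 on a log axis, with symbols for replicates and colours for hosts. The genes were chosen among those without overlap between hosts, so the blue WT and orange RIPmOVA points are apart in each row by selection. Ly6d was at 3.00 to 6.61 against 197 and 365 RPKM, and Il7r at 49.3 to 56.0 against 13.7 and 19.2 RPKM.

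Mir155hg and Smc4 are shown with the microRNAs they carry, while other called genes hold microRNA hairpins too. Mir155hg (Entrez 100653389, chromosome 16, 84713023 to 84715245), a long non-coding RNA that carries the miR-155 hairpin, was at 0.372, 1.00 and 0.669 RPKM in WT and at 27.0 and 16.2 RPKM in RIPmOVA hosts, and rose by 4.22 (SE 0.39, adjusted p = 0.00077). Smc4, a condensin subunit whose introns carry the miR-15b and miR-16-2 hairpins, was at 16.5, 14.1 and 15.8 RPKM and then at 79.2 and 60.6 RPKM, and rose by 2.13 (SE 0.24, adjusted p = 0.0022). The libraries do not measure mature microRNAs, and the sequences below, from RefSeq on GRCm38.p6, show what these transcripts carry. Capitals mark the seed, bases 2 to 8, which miR-15b and miR-16 share.
mmu-miR-155-5p (chr16:84714143-84714165, plus strand): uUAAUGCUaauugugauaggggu
mmu-miR-15b-5p (chr3:69009775-69009796, plus strand): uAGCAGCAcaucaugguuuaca
mmu-miR-16-5p (chr3:69009918-69009939, plus strand): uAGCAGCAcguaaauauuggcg
Of the 10 called genes annotated as microRNAs, 9 stayed under 50 reads in each DKO-labelled library and get no fold change here.

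Transcription factors of the early response did not move together. Of 9 tested AP-1, BATF and IRF genes, 4 rose (median 0.99 against 0.03 over all genes), and 5 were called with the covariate. Besides Bhlhe40 these were Fosl2 (2.40), Fos (1.86) and Irf8 (1.68). Fos was at 6.76, 4.05 and 3.69 RPKM in WT and at 19.9 and 16.9 RPKM in RIPmOVA hosts, without overlap. Batf, the AP-1 partner of IRF4, was at 25.6, 21.4 and 27.5 RPKM against 56.0 and 43.7 RPKM, a change of 0.99 that passed the adjusted p (0.0053) and missed the fold limit. Of 5 tested EGR factors and NAB corepressors, 0 were called, although Egr2 and Nab2 had an adjusted p of 0.043 and 0.026. Egr2 was at 34.0, 33.3 and 33.1 RPKM against 43.8 and 41.7 RPKM, and Egr1 was at 71.1, 81.3 and 68.6 RPKM against 83.4 and 95.2 RPKM. Nab2, a corepressor of EGR proteins, went the other way at 73.4, 63.6 and 67.6 RPKM against 49.7 and 51.1 RPKM, a change of -0.43. Egr3 was lower in level, at 2.49, 3.66 and 2.93 RPKM against 6.04 and 5.55 RPKM, and had the largest change of the list, 0.85 (adjusted p = 0.25), without overlap.

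The NF-kB list leaned to higher values across its length. All 15 genes tested had a change above 0, with a median of 0.71 against 0.03 over all genes. How many of all tested genes lay above 0 was not counted. Of the 15, 4 were called, 2 with the covariate and fewer still without RIPmOVA replicate 1. Nfkbid, a nuclear inhibitor of the NF-kB family, was at 37.1, 37.4 and 37.0 RPKM in WT and at 96.5 and 85.6 RPKM in RIPmOVA hosts, a change of 1.28 (SE 0.08, adjusted p = 0.0001). Bcl3, a nuclear coactivator of p50 and p52, rose by 1.79, Nfkb2, the precursor of p52, by 1.25 and Tnfaip3, which encodes the deubiquitinase A20, by 1.04. Relb at 0.88, Birc3 at 0.82 and Nfkbia at 0.69 passed the adjusted p (0.0048, 0.004 and 0.012) below the fold limit. Nfkbia, the gene of the inhibitor IkB alpha, was at 121, 102 and 119 RPKM against 193 and 175 RPKM. Members thus included activating subunits, cofactors and inhibitors.

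Of 14 NFAT and calcium genes, 1 rose (median -0.18). This was Nfatc1, the autoregulated NFAT factor, at 32.1, 29.4 and 28.6 RPKM against 80.0 and 55.5 RPKM, a change of 1.14 (SE 0.14, adjusted p = 0.0032). Ppp3ca, a catalytic subunit of calcineurin, had a change of -0.86 and Orai1, the pore of the calcium channel, of 0.61, both with an adjusted p under 0.05 (0.011 and 0.02). Of 9 ERK feedback genes, 3 rose (median 0.18) with 2 called with the covariate and 0 without RIPmOVA replicate 1. Spry1, an inhibitor of the RAS pathway, was at 0.419, 0.030 and 0.156 RPKM in WT and at 23.3 and 3.20 RPKM in RIPmOVA hosts, so that the RIPmOVA libraries differed from each other more than in most genes. Dusp4, a nuclear ERK phosphatase, rose by 2.91 and Dusp5 by 1.09, the latter from 49.9, 54.3 and 50.9 RPKM to 133 and 92.1 RPKM.

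Promoter windows of RefSeq on GRCm38.p6, from 250 bases before to 50 after a start, were at hand for 117 of the 176 genes called higher, 10 of the 18 called lower and 9073 of the 11569 tested. They were searched on both strands for motifs of factors named above. An AP-1 site (TGANTCA) stood in 14.5% of the genes called higher and in 5.91% of all genes tested, a kB-like site (GGANNTTCC) in 10.3% and 5.40%, and an EGR site (GCGNGGGCG) in 18.8% and 11.1%. The NR4A monomer site (AAAGGTCA) stood in 1 of the 117 genes (0.855%), Tgif1, against 1.32% of all. A match describes letters in a window and not binding. None of the 4 motifs holds another. The stretches below lie before the start and are written on the strand of the gene, with the motif, read on either strand, in capitals. They show for each motif the gene with the highest change among the matches that end before the start, then Nr4a1, Bcl2l11 and a pair of paralogs.
Plaur, AP-1 site (chr7:24462374-24462460, plus strand, 62 bases between site and start): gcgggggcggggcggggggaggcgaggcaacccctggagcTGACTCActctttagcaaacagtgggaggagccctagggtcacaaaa
Il1r2, kB-like site (chr1:40085947-40086035, plus strand, 97 bases between site and start): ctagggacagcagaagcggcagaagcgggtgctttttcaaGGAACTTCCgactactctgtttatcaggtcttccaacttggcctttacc
Gadd45b, EGR site (chr10:80930021-80930090, plus strand, 21 bases between site and start): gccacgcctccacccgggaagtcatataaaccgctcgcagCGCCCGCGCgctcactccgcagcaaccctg
Tgif1, NR4A monomer site (chr17:70849982-70850040, minus strand, 231 bases between site and start): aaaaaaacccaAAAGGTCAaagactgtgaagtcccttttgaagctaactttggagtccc
Nr4a1, EGR site (chr15:101266746-101266834, plus strand, 51 bases between site and start): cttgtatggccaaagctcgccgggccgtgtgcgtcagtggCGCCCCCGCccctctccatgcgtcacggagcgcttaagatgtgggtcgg
Bcl2l11, EGR site (chr2:128125948-128126036, plus strand, 41 bases between site and start): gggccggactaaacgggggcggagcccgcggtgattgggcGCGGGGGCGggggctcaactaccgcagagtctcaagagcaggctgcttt
Bcl2a1b, AP-1 site (chr9:89199069-89199155, plus strand, 157 bases between site and start): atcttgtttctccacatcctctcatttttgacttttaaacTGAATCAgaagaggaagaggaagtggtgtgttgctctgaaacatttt
Bcl2a1d, AP-1 site (chr9:88731918-88732004, minus strand, 107 bases between site and start): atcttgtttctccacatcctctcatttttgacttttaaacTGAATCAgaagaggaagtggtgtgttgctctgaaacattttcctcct
The Bcl2a1b and Bcl2a1d stretches begin with the same bases up to and past the site, and these copies could share reads elsewhere too. Bcl2a1a, another called copy, has the same bases around its AP-1 site. The shares above count such copies as separate genes.

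The receptor machinery held no called gene. Of 13 genes of the T cell receptor complex and its proximal kinases and adaptors, 0 were called. Their changes ran from -0.32 to 0.26 with a median of -0.16, and the lack of a call does not show equal levels. The receptor chains that bind antigen were not among the genes tested. Of 18 inhibitors of receptor signalling, 1 rose, with 0 called with the covariate. Cblb, an E3 ligase that restrains receptor signals, was at 6.07, 5.58 and 4.81 RPKM in WT and at 15.7 and 10.1 RPKM in RIPmOVA hosts, a change of 1.13 (SE 0.18, adjusted p = 0.01). Lax1 at 0.91, Ubash3b at 0.82 and Ptpn22 at 0.57 passed the adjusted p (0.025, 0.039 and 0.027) below the fold limit, and so did Csk, the kinase that inactivates LCK, at -0.66 (0.025). Cd5, a surface inhibitor that follows receptor signal strength, was at 69.5, 77.6 and 80.8 RPKM against 131 and 96.4 RPKM, a change of 0.57 (adjusted p = 0.077).

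Genes of inhibitory receptors and their ligands were among the lists with most calls. Of 12 tested, 6 rose (median 1.09), 1 with the covariate, 5 without WT replicate 2 and 3 without RIPmOVA replicate 1. Ctla4, a competitor for CD28 ligands, was at 4.94, 2.08 and 3.19 RPKM in WT and at 23.2 and 22.1 RPKM in RIPmOVA hosts, a change of 2.63 (SE 0.35, adjusted p = 0.0047, and 0.052 with the covariate). The adjacent genes of both PD-1 ligands rose, Pdcd1lg2 by 2.36 and Cd274 by 1.80. Cd274 was at 20.3, 13.2 and 12.8 RPKM against 62.0 and 46.7 RPKM. Lag3 rose by 2.12, Cd200 by 1.22 and Lgals1, which encodes galectin 1 and was called with the covariate, by 1.31. Pdcd1, which encodes PD-1, was at 18.8, 21.7 and 26.3 RPKM against 51.5 and 31.7 RPKM, without overlap and with a change of 0.86 (adjusted p = 0.054). Of 12 anergy-associated genes, 6 rose (median 0.99) and 3 with the covariate. This list was drawn up around the theme of the study and is no independent evidence of its direction. Nt5e, the ecto-nucleotidase CD73, was at 0.220, 0.250 and 0.071 RPKM and then at 12.9 and 3.39 RPKM, a change of 3.42 (SE 0.45, adjusted p = 0.0048). Neurl3, an E3 ligase, rose by 3.43 and Nrp1, a semaphorin receptor, by 1.42, and the called members also included Cblb and Dusp4, which stand in other lists too. Izumo1r, which encodes folate receptor 4, was at 102, 66.8 and 81.9 RPKM against 58.4 and 55.9 RPKM, a change of -0.52 (adjusted p = 0.12).

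Of 11 costimulatory receptors, 5 rose (median 1.46) and 4 with the covariate. All 5 belong to the TNF receptor family, as most of the list does. Beside Tnfrsf4 these were Tnfrsf9 (4-1BB) at 2.82, Tnfrsf25 (DR3) at 2.30, Tnfrsf1b (TNFR2) at 1.47 and Tnfrsf18 (GITR) at 1.46. Tnfrsf18 was at 23.7, 21.7 and 26.8 RPKM in WT and at 81.3 and 55.1 RPKM in RIPmOVA hosts. Cd28 was at 112, 117 and 123 RPKM against 123 and 122 RPKM, a change of 0.06 (adjusted p = 0.67). Slamf6, also outside that family, had a change of 1.46 and was not called (adjusted p = 0.074). Of 9 ligands, 5 rose (median 1.30) and 3 with the covariate. Fasl, the ligand of the death receptor FAS, was at 0.804, 1.02 and 1.40 RPKM and then at 7.82 and 6.03 RPKM, a change of 2.24 (SE 0.21, adjusted p = 0.00077). Lta, which encodes lymphotoxin alpha, rose by 1.45 from 15.9, 19.7 and 21.3 RPKM to 54.7 and 49.9 RPKM. Tnfsf14 (LIGHT) rose by 2.16, Tnfsf8 (CD30 ligand) by 1.96 and Tnfsf11 (RANKL), which drives medullary epithelial cells, by 1.30. Ltb was at 114, 109 and 111 RPKM against 128 and 135 RPKM, a change of 0.24 (adjusted p = 0.12).

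Genes of cell death moved in both senses of their function. Of 6 tested pro-apoptotic BCL2 family genes, 1 rose (median -0.10). Bcl2l11 (Entrez 12125, chromosome 2, 128126038 to 128162547), which encodes BIM, was at 1.34, 2.02 and 1.49 RPKM in WT and at 7.93 and 5.51 RPKM in RIPmOVA hosts, a change of 1.76 (SE 0.17, adjusted p = 0.0012, and 0.027 with the covariate). Control OT-II libraries held Bcl2l11 at 6.86 and 6.32 RPKM in WT and at 34.6 and 31.7 RPKM in RIPmOVA hosts. The DKO-labelled level in RIPmOVA hosts was thus near that of control cells in WT hosts. In control cells Bcl2l11 changed by 2.25, with a limma adjusted p of 0.55 for the difference between genotypes. Of 6 pro-survival genes, 3 rose (median 1.06). Bcl2a1d was at 5.46, 6.83 and 6.47 RPKM against 55.4 and 30.6 RPKM, a change of 2.63, Bcl2a1b rose by 2.64 and Bcl2a1a by 1.70. The reads of these near-identical copies may have been split between them, so single values are uncertain. Bcl2a1a reached at most 48 reads in a DKO-labelled library and lost its call without WT replicate 2 (limma adjusted p = 0.065). Bcl2 was lower without overlap, at 33.9, 32.2 and 40.9 RPKM against 19.8 and 21.9 RPKM, a change of -0.76 (adjusted p = 0.013) under the fold limit. Of 8 Gadd45 and stress genes, Gadd45b and Gadd45g (2.11) rose, with a median of 0.15.

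Of 11 genes of the regulatory T cell programme, 6 rose and 1 fell (median 1.05), with 5 called with the covariate and 4 without RIPmOVA replicate 1. Foxp3, the factor that defines the lineage, was at 0.037, 0.071 and 0.047 RPKM in WT and at 0.092 and 0.077 RPKM in RIPmOVA hosts, from 10 to 21 reads per library, a change of 0.08 (SE 0.36, adjusted p = 0.92) that was -0.21 under quantile normalization. Its change in control OT-II cells was 1.77, with an adjusted p of 0.46 for the difference between genotypes. Ikzf2, which encodes Helios, was at 0.417, 0.874 and 0.420 RPKM and then at 14.9 and 8.23 RPKM, a change of 3.46 (SE 0.33, adjusted p = 0.00094). The interleukin 2 receptor chains Il2rb and Il2ra rose by 2.15 and 2.04. Il2ra was at 1.35, 1.53 and 0.912 RPKM against 8.48 and 5.26 RPKM and had an adjusted p of 0.085 with the covariate. Ikzf4 (Eos) rose by 1.47, Tnfrsf18 by 1.46 and Capg, an actin capping protein, by 1.05, whereas Gpr83, an orphan receptor, fell by 1.36. Members other than Foxp3 thus made up the calls. Il2 itself was at 1.25 to 1.82 RPKM in WT and at 2.52 and 2.40 RPKM in RIPmOVA hosts, a change of 0.55 (adjusted p = 0.44). Cish, an inhibitor induced by STAT5, rose by 1.95 (adjusted p = 0.00077).

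**Figure D3:**
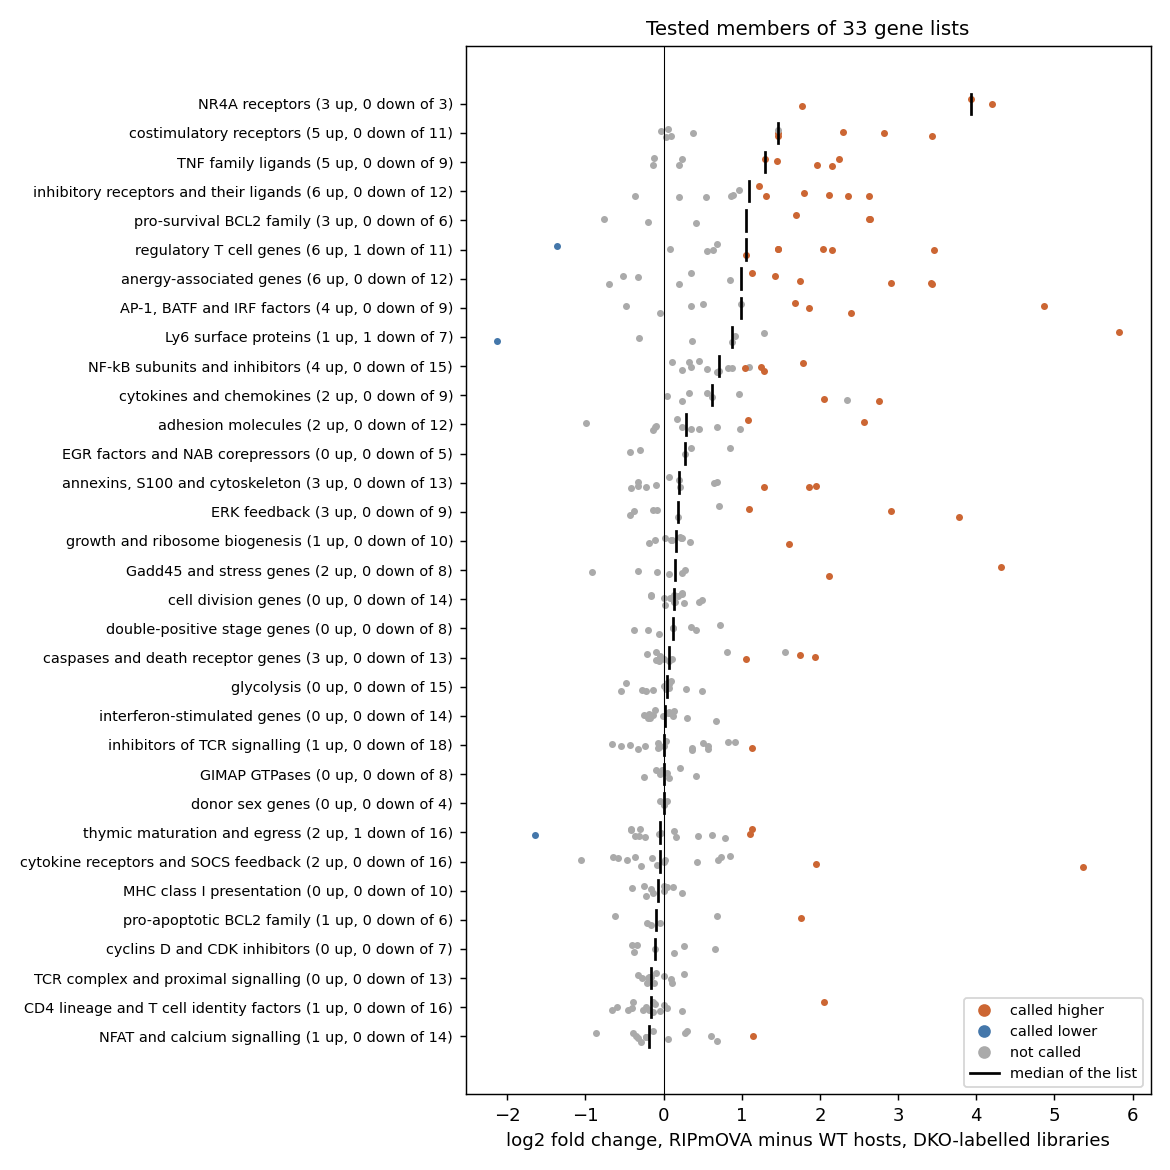
Each point is a tested gene of 1 of 33 gene lists, placed by its log2 fold change of RIPmOVA over WT hosts, with lists in the order of their median (black bar). The NR4A receptors lie furthest to the right with a median of 3.93, followed by the costimulatory receptors at 1.46, while lists such as the receptor complex (-0.16) sit near the median of all genes, 0.03.

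The genes called lower were fewer, and only 4 genes were called lower with the covariate, 1 of which is Cd7. Cd7 (Entrez 12516, chromosome 11, 121036747 to 121039478), an immunoglobulin family surface protein of T cells, was at 56.9, 46.2 and 61.0 RPKM in WT and at 8.30 and 17.4 RPKM in RIPmOVA hosts, a change of -2.13 (SE 0.25, adjusted p = 0.0026, and 0.036 with the covariate). Igfbp4, which binds insulin-like growth factors, was at 21.3, 10.6 and 17.2 RPKM against 3.70 and 4.03 RPKM and fell by 1.90. Il7r (Entrez 16197, chromosome 15, 9506159 to 9529941), the interleukin 7 receptor alpha chain that keeps T cells alive, was at 50.1, 49.3 and 56.0 RPKM against 13.7 and 19.2 RPKM. It fell by 1.64 (SE 0.20, adjusted p = 0.0034, and 0.066 with the covariate). The WT values of Il7r lay close together and both RIPmOVA values were under 20 RPKM. The other named genes of this set were Adgrg5 (-1.61) and Adgrg3 (-1.27), neighbouring adhesion G protein-coupled receptors, Prag1 (-1.35), Ggt5 (-1.34), Rassf3 (-1.29), Arl4c (-1.18), Vipr1 (-1.17) and Fndc10 (-1.16). Gpr83 was at 31.9, 19.0 and 25.8 RPKM against 9.49 and 9.42 RPKM. Il7r, Gpr83 and Vipr1, which encodes a receptor for vasoactive intestinal peptide, were thus receptors among the 12 named genes.

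Of 16 genes of thymic maturation and egress, 2 rose and 1 fell, with a median of -0.04. S1pr1, the receptor through which mature thymocytes leave for the blood, was at 53.6, 44.2 and 42.5 RPKM in WT and at 95.3 and 110 RPKM in RIPmOVA hosts, a change of 1.13 (SE 0.11, adjusted p = 0.0012). Cd24a, which falls as thymocytes mature, rose by 1.11, and Il7r fell. Klf2, the factor known to drive S1pr1, was at 177, 131 and 137 RPKM against 113 and 116 RPKM, a change of -0.36 (adjusted p = 0.17). Cd69, the activation marker of the sort, was at 82.6, 76.2 and 77.6 RPKM against 138 and 134 RPKM, a change of 0.78 with an adjusted p of 0.00077 under the fold limit. Ccr7 was at 482, 476 and 500 RPKM against 355 and 438 RPKM, a change of -0.30 (adjusted p = 0.14). In the sort gate, then, CD69 transcripts themselves differed between hosts.

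Of 16 lineage and identity factors 1 was called. Myb rose by 2.05, from 12.4, 9.15 and 9.18 RPKM to 53.6 and 35.6 RPKM (adjusted p = 0.0061, and 0.099 with the covariate). Of 9 cytokines and chemokines, Cxcl10 (2.75) and Ccl4 (2.05) rose, and 0 with the covariate. Of 13 annexin, S100 and cytoskeleton genes 3 rose, among them Lmna, which encodes lamin A, from 8.61, 10.7 and 10.8 RPKM to 43.4 and 36.8 RPKM (change 1.95, adjusted p = 0.00023). Of 12 adhesion genes Cd83 (2.57) and Icam1 (1.08) rose, while Cd82 at 0.98 passed the adjusted p (0.0072) and missed the fold limit. Of 10 growth and ribosome biogenesis genes, Odc1, the first enzyme of polyamine synthesis, rose by 1.61.

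In 10 of the 33 lists no gene was called. Beside the EGR and receptor complex lists these were the double-positive stage genes (8 tested, -0.38 to 0.72), MHC class I presentation (10, -0.40 to 0.23), interferon-stimulated genes (14, -0.25 to 0.67), GIMAP GTPases (8, -0.25 to 0.42), cell division genes (14, -0.16 to 0.49), cyclins D and CDK inhibitors (7, -0.40 to 0.66), glycolysis (15, -0.55 to 0.49) and the genes that tell donor sex (4, -0.04 to 0.04). Of these lists, the one with the smallest adjusted p other than the EGR list was glycolysis, where Eno1 was at 143, 131 and 163 RPKM against 102 and 106 RPKM, a change of -0.48 (adjusted p = 0.039). Over all lists, 66 of 346 tested genes were called (19.1%), 63 higher and 3 lower. The lists were chosen with results of these data known, so that share is not compared with the 1.68% of all genes.

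Several called genes were neighbours in the genome. With gaps of up to 100 kb, 30 of the 194 called genes stood in 12 runs. How many of as many other tested genes would do so was not counted, so the number describes these genes only. The runs of Zc3h12d with Mir5104 and of Mir543 with Mir154 rest on microRNA genes under 50 reads. The longest run, on chromosome 3 from 68869586 to 69044742, held 1110032F04Rik, Ift80, Smc4, Mir16-2 (under 50 reads) and Trim59. Ift80, an intraflagellar transport gene, was at 2.06, 2.50 and 2.17 RPKM in WT and at 21.6 and 13.9 RPKM in RIPmOVA hosts, a change of 2.70 (SE 0.23, adjusted p = 0.00053), and Trim59 rose by 1.63. Another run held Tnfrsf4 and Tnfrsf18, and another Cd274 and Pdcd1lg2. Beside Nr4a1, the scaffold gene Grasp rose by 2.65, and beside Bcl2l11, Acoxl rose by 1.01 from 0.140, 0.326 and 0.200 RPKM to 0.849 and 1.04 RPKM. In the run of Adgrg5 and Adgrg3, both fell while their neighbour Kifc3 rose by 1.45. With the covariate, Acoxl, Trim59, 1110032F04Rik, Cd274, Pdcd1lg2, Adgrg5, Adgrg3 and Kifc3 lost their calls (adjusted p from 0.052 for Cd274 to 0.27 for Acoxl). Without RIPmOVA replicate 1, all of these but Cd274 lost theirs (from 0.073 for Trim59 to 0.42 for Kifc3).

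The 2 RIPmOVA libraries differed in the size of the response. Of the 176 genes called higher, 161 (91.5%) were higher in RIPmOVA replicate 1 than in replicate 2, with a median difference of 0.53 on the log2 scale, against 43.4% and a median of -0.03 over all genes tested. Of the 18 genes called lower, 15 were lower in replicate 1. Without replicate 1, 98 genes were called, 65 higher and 33 lower, of which 69 were among the 194. Without replicate 2, 219 genes were called. Replicate 2 was also the library with most sensory receptor reads and the lowest depth, and the part of these in the difference was not tested. Ctla4, at 23.2 and 22.1 RPKM, was nearly level between them, and S1pr1 was lower in replicate 1, at 95.3 against 110 RPKM.

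**Figure D4:**
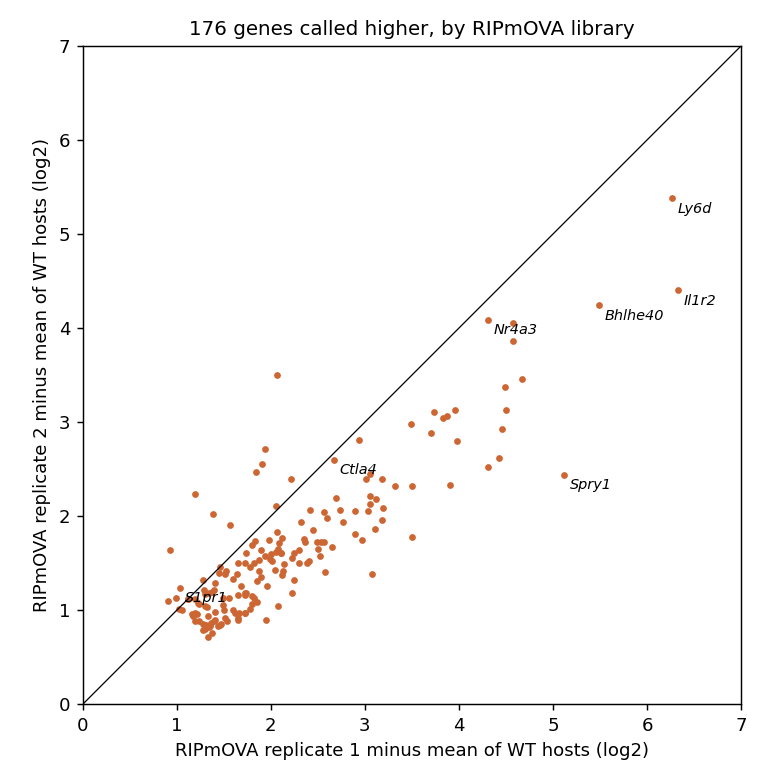
Each point is 1 of the 176 genes called higher. The axes give the log2 change of RIPmOVA replicate 1 (x) and replicate 2 (y) over the mean of the 3 WT libraries, and the line marks equal change. Of the 176 points, 161 lie below the line, and Spry1 lies at 5.12 against 2.44.

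Genes that mark other cells were looked at beside these results. The summed level of 8 thymic epithelial markers was 9.23 to 13.7 RPKM in WT and 24.3 and 19.9 RPKM in RIPmOVA hosts. Ly75 and Epcam made up most of it. Epcam was called higher, at 2.51, 2.65 and 2.24 RPKM against 10.2 and 5.78 RPKM (change 1.47, adjusted p = 0.013), while Foxn1, Krt5, Krt8, Psmb11, Aire and Ccl21a were at 1.11 RPKM or less in each DKO-labelled library and Krt5 was at 0 in RIPmOVA replicate 2. The 6 B cell markers summed to 2.76 to 6.00 RPKM in WT and to 7.55 and 7.73 RPKM in RIPmOVA hosts, with Pax5 at 0.10 RPKM or less. Cd74, the invariant chain of class II presentation, rose by 1.70, from 8.13, 7.12 and 8.98 RPKM to 30.8 and 24.2 RPKM. The 9 myeloid and dendritic markers summed to 28.2 to 32.3 and to 33.9 and 33.0 RPKM, of which Cst3 made up 22.0 to 29.0 RPKM. The 5 erythroid markers in the table were highest in WT replicate 3, at 25.3 RPKM against 1.23 to 2.98 RPKM in the other DKO-labelled libraries. Their part in the host effect was not tested. In bulk libraries such as these, more cells of a kind and more RNA per cell cannot be told apart, which holds for each gene above.

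Whether the response of DKO-labelled cells differed from that of control OT-II cells was tested with the interaction of host and genotype, which called 2 genes (0.0173%), Rln3 and Eno3. Neither is among the 194. Without replicate 2 of the control cells in WT hosts, 159 genes were called, and in 6 of the 9 fits that left out 1 library 0 were. The count was also 0 with the covariate, voom, a pseudocount of 0.1, a filter at RPKM 5 or the replicate number as a block, while 1078 genes had an unadjusted p under 0.05 in limma. Sensory receptor reads in control libraries were 1133 and 512.3 RPM in WT hosts and 551.8 and 292.5 RPM in RIPmOVA hosts. In DKO-labelled libraries such reads leaned the other way between hosts, and their part in the interaction was not tested. Of the 176 genes called higher in DKO-labelled cells, 165 also had a change above 0 in control cells, and 17 of the 18 called lower had a change below 0 there. The share of all tested genes with these signs in control cells was not counted, so the counts describe the called genes only. Changes in control cells were 4.26 for Gadd45b, 4.38 for Mir155hg and 1.75 for Nr4a1, with interaction adjusted p-values of 0.95, 0.93 and 0.98. Other genes lay further apart without passing the test. Ly6d changed by 5.83 in DKO-labelled and by 2.20 in control cells (interaction adjusted p = 0.091), Nfatc1 by 1.14 with 0.02 in control cells (0.17), and S1pr1 by 1.13 with 0.16 in control cells (0.14). Il7r fell by 1.64 in DKO-labelled cells, with -0.25 in control cells (0.25). Other genes had the larger change in control cells. Lad1 changed by 3.54 in DKO-labelled cells with 5.91 in control cells (0.091), and Arhgap20 by 1.27 with 4.15 in control cells (0.091). With 2 libraries in 3 of the 4 groups, a p that misses the threshold does not show that the responses were alike.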

How the data were processed

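RNA-seq libraries of sorted thymocytes were made with a low-input, unstranded kit, so overlapping genes on opposite strands share reads. The authors aligned reads with STAR to mm10, removed duplicates, counted exon reads per Entrez gene and deposited RPKM values, and they tested with DESeq2. Depth was recovered from RPKM times gene length, and 100% of low values came out as whole reads within the rounding of 3 decimals. No deposited sample column was left out.

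Log2(RPKM + 0.5) of all 9 libraries was fitted by group with limma 3.58.1 in R 4.3.3, with an intensity trend and Benjamini-Hochberg adjustment over 11569 genes with RPKM of 1 or more in 2 libraries. Calls needed both an adjusted p up to 0.05 and a log2 fold change of at least 1 in size. Summaries used Python 3.11.15 and pandas 2.3.3. The fits and the depth step were tested on simulated data. Each replicate number names a different chimera within a host, and p-values rest on the spread between libraries pooled over all groups. Same-numbered DKO-labelled and control libraries of a host were taken to share a chimera. The main fit, with its interaction, ignored that pairing, and counts with the chimera as a block are given below. Of 24594 genes, 24570 were matched to RefSeq by Entrez number.

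Named genes were Nr4a1 and Nr4a3, the 20 highest and 12 lowest called genes with at least 50 reads in a library and no overlap between hosts, members of 33 gene lists and the genes called in the interaction. Members and lists were chosen with earlier results of these data known. Which uncalled list members are printed, and Epcam, Cd74, Lmna, the genes of the promoter stretches and the genomic neighbours, were chosen after their values were seen. Alternatives were other pseudocounts, filters, scalings and variance models, voom on recovered reads, a covariate for sensory receptor reads, replicate blocks and leaving out each library. Results of a few genes are not reported here.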

Additional observations from a re-analysis of the deposited data

Results flagged for a closer look

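The interaction of host and genotype in limma called 2 genes. These calls were not stable, since 0 genes were called with the covariate for sensory receptor reads, voom, a pseudocount of 0.1, a filter at RPKM 5, the replicate number as a block and in 6 of 9 fits that left out 1 library. Rln3, which encodes relaxin 3, was at 0.905, 0.782 and 0.315 RPKM in WT and 0.617 and 0.632 RPKM in RIPmOVA hosts in DKO-labelled cells, but at 0.407 and 1.37 RPKM and then at 38.3 and 26.5 RPKM in control OT-II cells. The host effect in DKO-labelled minus control cells was -4.65 on the log2 scale (adjusted p = 0.036). Eno3, the muscle enolase, was at 3.00, 2.60 and 2.82 RPKM against 1.48 and 2.08 RPKM in DKO-labelled cells and at 4.10 and 5.22 RPKM against 23.9 and 16.7 RPKM in control cells, a difference of -2.55 (SE 0.27, adjusted p = 0.036). Neither was called for the host effect within DKO-labelled cells. With 1078 genes at an unadjusted interaction p under 0.05, no cause was tested.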

How the results depend on the processing

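In the 117 named called genes, 2235 of 2555 values over 22 alternatives kept direction and call, 320 lost the call and 0 reversed. Of 194 called genes (176 higher, 18 lower), 87 (83 and 4) were called with the covariate for sensory receptor reads and 387 (268 and 119) with the adjusted p alone. A filter at RPKM 5, which tests fewer genes, gave 117 higher, quantile normalization 47 lower and no intensity trend 11 lower. Leaving out 1 library gave 98 to 259 called, 65 to 243 higher and 9 to 40 lower. The 2 interaction calls became 0 with pseudocount 0.1, a filter at RPKM 5, voom on recovered reads or the covariate, and 8 without a filter. They ranged from 0 to 159 when 1 library was left out, with 159 without replicate 2 of control cells in WT hosts. The cause of these moves was not tested. Replicate numbers name different mice between hosts, and deviations of same-numbered DKO-labelled libraries had a correlation of 0.102 and 0.231. With the replicate number as a block, 110 genes (97 higher) and 0 interactions were called. With the chimera as a block, 193 and 2 were. Foxp3 was at -0.21 under quantile normalization. There were only 2 RIPmOVA libraries, and 3 reads at 1 kb were worth up to 0.172 RPKM. Changes of genes of that length below this level could therefore be missed.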

Other observations

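Among the Ly6 surface protein list, which also holds Cd7, 1 of 7 tested genes rose and 1 fell, with a median of 0.87 against 0.03 over all genes. In the list of 16 cytokine receptors and SOCS feedback genes, the 2 called members were Il1r2 and Cish, and the median was -0.04.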
